A study of Homo sapiens with 6 samples.

Results

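The ATP-binding cassette (ABC) transporters are membrane pumps that couple ATP hydrolysis to the movement of drugs, lipids, peptides or metal-linked compounds across a membrane. In liver cells some members export drugs and conjugates into blood or bile, others load lipids into lipoproteins or bile, and others work in peroxisomes, lysosomes and mitochondria. The fluorinated nucleotides that cells make from fluorouracil are known substrates of several efflux members, among them ABCC4, ABCC5 and ABCC11. The family was taken as every array row with exactly 1 platform gene symbol made of ABC, one of the letters A, B, C, D or G, and a number, without pseudogenes and antisense transcripts. This gave 38 genes of the 22465 named genes on the array, with 1 row each. ABCC13 was left out because RefSeq lists it as a pseudogene. By known role, 10 members were drug efflux pumps, 20 moved lipids, sterols or bile salts, 1 moved peptides, 3 were mitochondrial or porphyrin transporters, and 4 had other roles.

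The 6 arrays came from stable lines labelled as HepG2, a human liver cancer line. Of these arrays, 3 were of the pLKO-Vector control and 3 of the hairpin shSND1-#1 against SND1, an RNA-binding nuclease and coactivator. Both lines had received 5-Fu (fluorouracil) at 6 µg/mL for 48 h, so no value here gives the effect of the drug. The knockdown arrays share 1 hairpin and the controls carry a vector without one, so loss of SND1 and other effects of a hairpin cannot be told apart. The labels do not say whether replicates were separate cultures, and p-values may therefore reflect technical spread only.

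The hairpin's target was lower on all knockdown arrays. The array row shared by SND1 and SND1-IT1, a transcript within it, had log2 signals of 7.44, 7.25 and 7.16 on the vector arrays and 5.82, 5.69 and 5.88 on the shSND1 arrays. Its signal in knockdown cells was 35.6% of that in vector cells (95% confidence interval 30.6 to 41.5, limma adjusted p = 0.0166 over all clusters). An exact permutation test (two-sided) gave p = 0.1, and 3 arrays against 3 allow no smaller value. Leaving out vector replicate 1 or 2, or any shSND1 replicate, moved the limma adjusted p to 0.0773 to 0.249. Of 12 measured hepatocyte markers, 6 had signals under the lower quartile of named genes, among them ALB (albumin) at 1.83 and FGB (fibrinogen beta chain) at 1.69, while APOA2 had 7.83. All 10 epithelial markers lay above the median of named genes. The list includes CDX2, VIL1, LGALS4 and TFF1, genes known from gut epithelium, with mean signals of 6.24, 7.82, 7.89 and 8.13. The name of the cell line is that of the labels, and the identity of the cells was not tested. Vector replicate 3 and shSND1 replicate 1 differed by an SD of 0.14 over the named genes, less than any 2 arrays of one group (0.147 to 0.193).

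All signals below are the deposited log2 values, and a change is the mean of the shSND1 arrays minus the mean of the vector arrays. Named genes had a median signal of 4.83, with quartiles at 3.19 and 6.06. Probe sets respond unequally to the same amount of RNA, so signals of different genes describe the array and do not rank transcripts by abundance.

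None of the 38 members passed an adjusted p of 0.05 (limma, Benjamini-Hochberg over the 22465 named genes), a threshold that 0.169% of named genes passed. The smallest adjusted p in the family was 0.276. Before adjustment, the limma p was under 0.05 for 2 lower members (ABCC3 and ABCC4, 5.26% of the family against 7.34% of named genes) and 1 higher member (ABCB1, 2.63% against 4.85%). All 3 are drug efflux pumps, a class of 10 members of which 8 lay above the median signal of named genes. Of named genes above that median, 11.8% were lower and 4.62% higher at this level, against 2.87% and 5.07% at or below it. The shares of the family were not above those of all named genes. With arrays centred on their medians the counts were 4 lower (ABCC5 and ABCB11 being added) and 0 higher. Single arrays moved these counts. The number lower was 1 without vector replicate 1 or 2, 4 without vector replicate 3 and 0 without shSND1 replicate 2, and the number higher was 0 without shSND1 replicate 2 or 3. The changes lay between -0.18 and 0.20 with a median of -0.01, against a median of 0.01 over all named genes. The 95% confidence interval of each of the 38 changes lay within a 1.5-fold change in either direction, as it did for 97.3% of named genes. These intervals are not adjusted for the number of genes. Signals near the array's floor can be compressed, so changes of dim members may be understated, which was not measured here.

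**Figure D1:**
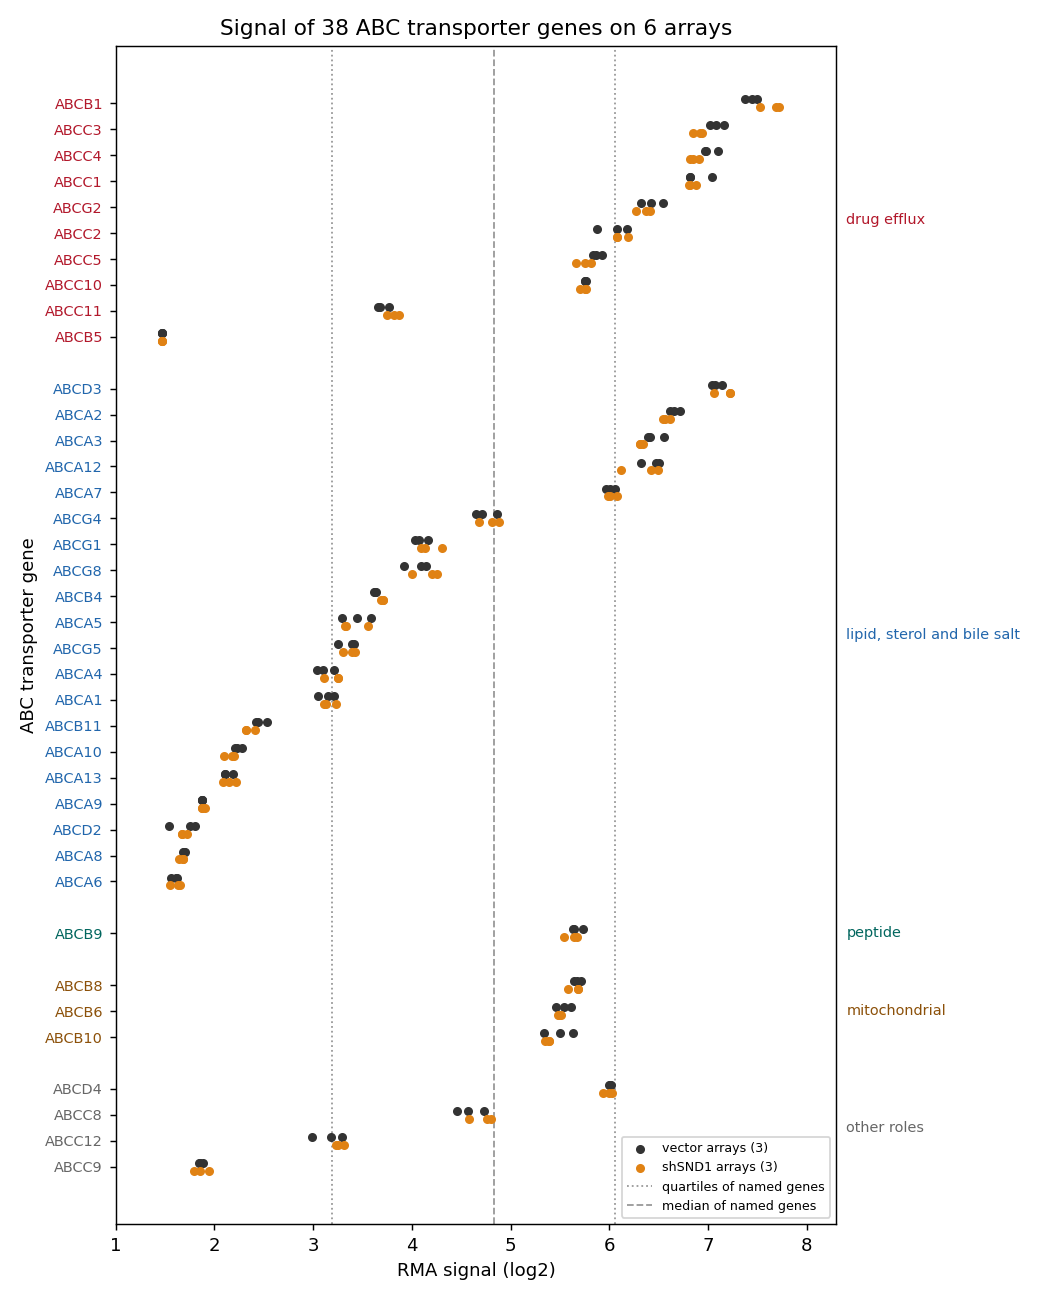
Log2 RMA signal (horizontal axis) of the 38 ABC transporter genes (vertical axis, grouped by role and sorted by mean), with each point 1 array of the vector group or the shSND1 group. Dashed and dotted lines mark the median (4.83) and the quartiles (3.19 and 6.06) of all named genes, and 8 of 10 drug efflux genes but 6 of 21 lipid and peptide genes have means to the right of the median.

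ABCB1, the P-glycoprotein pump that exports many anticancer drugs, had the highest signal of the family. Its signal was 7.50, 7.45 and 7.37 on the vector arrays and 7.53, 7.72 and 7.69 on the shSND1 arrays. The groups did not overlap, although vector replicate 1 and shSND1 replicate 1 were close. The change was 0.20 (SE 0.07), a 1.15-fold difference with a 95% interval of 0.04 to 0.37, and the limma adjusted p was 0.307. With arrays centred on their medians it was 0.15. ABCB4, the phosphatidylcholine flippase of the bile canaliculus, is the neighbouring gene on chromosome 7 and a close relative of ABCB1 in sequence. ABCB4 was the other member whose shSND1 arrays all lay above the vector arrays, with 3.64, 3.62 and 3.63 on the vector arrays and 3.71, 3.69 and 3.71 on the shSND1 arrays. Its change of 0.07 (SE 0.05, limma adjusted p = 0.6) did not pass. Non-overlapping groups with higher shSND1 arrays were thus seen in 2 of 38 members (5.26%), against 6.33% of named genes.

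ABCC3 and ABCC4 were the members with the largest negative changes. ABCC3, a basolateral exporter of glucuronides and bile salts, had 7.16, 7.08 and 7.02 on the vector arrays and 6.92, 6.85 and 6.94 on the shSND1 arrays. Its groups did not overlap, and the change was -0.18 (SE 0.06, 95% interval -0.32 to -0.04, limma adjusted p = 0.276). ABCC4, an exporter of cyclic nucleotides, nucleotide analogues and bile salts, had 7.10, 6.98 and 6.97 on the vector arrays and 6.82, 6.85 and 6.91 on the shSND1 arrays. The shSND1 arrays again lay under the vector arrays, with a change of -0.16 (SE 0.06, 95% interval -0.29 to -0.02, limma adjusted p = 0.348). The knockdown signals were 88.3% and 89.8% of the vector signals. Without vector replicate 1, the changes were -0.14 for ABCC3 and -0.12 for ABCC4.

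ABCC5 and ABCC11, exporters of cyclic nucleotides and of fluorouracil nucleotides, differed in sign. ABCC5 had 5.93, 5.86 and 5.83 on the vector arrays and 5.75, 5.66 and 5.81 on the shSND1 arrays, without overlap, and a change of -0.13 (SE 0.06, limma adjusted p = 0.431). ABCC11 had 3.68, 3.66 and 3.77 on the vector arrays and 3.87, 3.82 and 3.75 on the shSND1 arrays, so the groups overlapped. Its change was 0.11 (SE 0.06, limma adjusted p = 0.504), from a signal below the median of named genes. ABCC12, the neighbour of ABCC11 on chromosome 16, with no well-settled substrate, had a signal of 3.21 and a change of 0.11 (SE 0.08). Neither ABCC5 nor ABCC11 passed, and the difference between them was not tested.

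The other well-studied efflux pumps had overlapping groups. ABCC1, the multidrug resistance protein that exports glutathione conjugates, had 7.04, 6.82 and 6.82 on the vector arrays and 6.88, 6.81 and 6.82 on the shSND1 arrays. Vector replicate 1 stood above the other 5, and the change was -0.06 (SE 0.07, 95% interval -0.22 to 0.11). Without that array it was 0.01. ABCC2, which exports conjugates into bile, had 6.18, 6.08 and 5.87 on the vector arrays and 6.08, 6.08 and 6.19 on the shSND1 arrays. Here vector replicate 3 stood below the others, with a change of 0.07 (SE 0.09, 95% interval -0.13 to 0.27), and without that array it was -0.01.

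ABCG2, a pump for antifolates, topotecan and urate, had 6.54, 6.42 and 6.32 on the vector arrays and 6.27, 6.41 and 6.37 on the shSND1 arrays. Its change was -0.07 (SE 0.07, 95% interval -0.24 to 0.10), within the spread of the vector arrays. ABCC10, an exporter of taxanes among others, had a mean signal of 5.74 and a change of -0.02 (SE 0.05). ABCB5, linked to drug resistance in melanoma, had the same value, 1.47, on all 6 arrays, as did 7 named genes in all. A value that is the same on every array carries no information on a change.

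**Figure D2:**
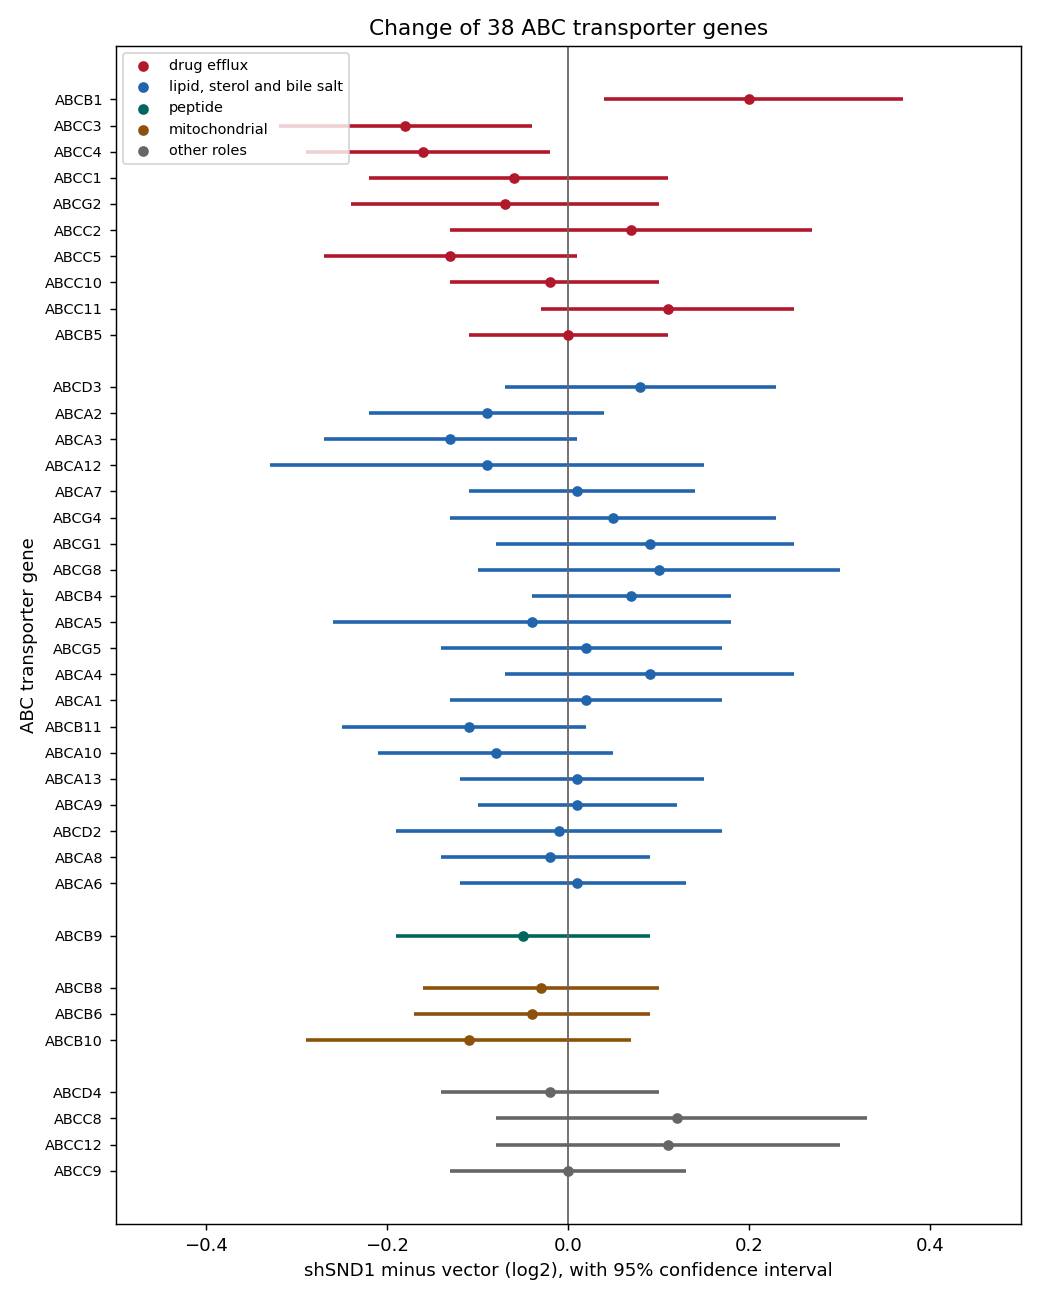
Change of each of the 38 ABC transporter genes (shSND1 minus vector, log2, horizontal axis) as a point, with its 95% confidence interval from limma as a line, coloured by role. The intervals of ABCB1 (0.04 to 0.37), ABCC3 (-0.32 to -0.04) and ABCC4 (-0.29 to -0.02) leave out 0, without adjustment for 22465 genes.

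The promoters of 3 bright members are shown as the 250 bases before a RefSeq gene start (build GRCh38.p14), read in the direction of the gene. ABCB1 is shown as the member with the highest signal and the largest change, ABCC4 as one of the members with a negative change, and ABCD3 as the brightest lipid transporter. ABCC3 is not in the promoter table used. The windows are chr7:87600885-87601134 on the minus strand for ABCB1, chr13:95301452-95301701 on the minus strand for ABCC4 and chr1:94418139-94418388 on the plus strand for ABCD3. The table holds 2 starts for ABCB1, and the window with matches is printed. Capitals mark every match, on either strand, to CCAAT (bound by NF-Y and YB-1), GGGCGG (the GC box of Sp1) or TGACNNNGC (the core of the antioxidant response element).
ABCB1: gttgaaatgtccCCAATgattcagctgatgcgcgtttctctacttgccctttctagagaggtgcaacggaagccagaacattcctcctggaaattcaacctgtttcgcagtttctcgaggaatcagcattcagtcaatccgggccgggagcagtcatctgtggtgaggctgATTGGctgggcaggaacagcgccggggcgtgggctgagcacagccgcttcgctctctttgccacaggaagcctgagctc
ABCC4: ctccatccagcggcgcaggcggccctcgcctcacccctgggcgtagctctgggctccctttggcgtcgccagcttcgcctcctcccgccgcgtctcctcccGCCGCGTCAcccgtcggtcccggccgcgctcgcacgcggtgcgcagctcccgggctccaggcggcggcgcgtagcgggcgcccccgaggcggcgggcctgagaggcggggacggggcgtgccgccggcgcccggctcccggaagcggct
ABCD3: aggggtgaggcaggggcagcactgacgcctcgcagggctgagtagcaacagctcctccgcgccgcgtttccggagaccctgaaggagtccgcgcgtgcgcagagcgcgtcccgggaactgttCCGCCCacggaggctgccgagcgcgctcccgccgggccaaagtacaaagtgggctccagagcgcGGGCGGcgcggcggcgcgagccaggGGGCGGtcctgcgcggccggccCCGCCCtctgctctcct

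The ABCB1 window held 2 CCAAT matches, which begin 238 and 79 bases before the start and of which the nearer is on the opposite strand. The ABCC4 window held 1 TGACNNNGC match, and the ABCD3 window held 4 GGGCGG matches. Of the 38 members, 30 were in the promoter table. CCAAT was found for 10 of these 30 genes (33.3%), against 37.0% of the 27305 genes in the table. GGGCGG was found for 18 (60.0%, against 46.2%) and TGACNNNGC for 8 (26.7%, against 13.2%). Each gene was counted if any of its windows held a match on either strand, and the 3 motifs do not overlap in the sequences shown. The members are all protein coding, and the 27305 genes were not matched to them by gene type or number of windows. The difference in shares was not tested. A match describes these letters only, and binding was not measured.

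Among lipid transporters, ABCD3, a peroxisomal importer of branched and long-chain fatty acyl-CoA, had the highest signal. It read 7.14, 7.07 and 7.04 on the vector arrays and 7.06, 7.22 and 7.22 on the shSND1 arrays, so shSND1 replicate 1 lay among the vector arrays. The change was 0.08 (SE 0.06, limma adjusted p = 0.649). ABCD2, its peroxisomal relative for very-long-chain fatty acids, had a mean signal of 1.69 and a change of -0.01.

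ABCA3, the phospholipid pump of lamellar bodies in lung, had the largest negative change of the lipid class. It read 6.55, 6.41 and 6.39 on the vector arrays and 6.31, 6.31 and 6.34 on the shSND1 arrays, without overlap. The change was -0.13 (SE 0.06, 95% interval -0.27 to 0.01, limma adjusted p = 0.454). ABCA2, a lysosomal lipid transporter, had 6.72, 6.61 and 6.66 on the vector arrays and 6.61, 6.56 and 6.54 on the shSND1 arrays. The groups met at 6.61, and the change was -0.09 (SE 0.06). ABCA12, which loads lipids for the skin barrier, had 6.47, 6.50 and 6.32 on the vector arrays and 6.12, 6.42 and 6.49 on the shSND1 arrays. Only shSND1 replicate 1 lay below the vector arrays, and the change of -0.09 (SE 0.10) was 0.03 without it. ABCA7, a phospholipid exporter studied in the brain, had a mean signal of 6.02 and a change of 0.01.

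ABCA1, which loads cholesterol and phospholipid onto apolipoprotein A-I to form high-density lipoprotein, gave a low signal. It read 3.15, 3.05 and 3.21 on the vector arrays and 3.23, 3.13 and 3.11 on the shSND1 arrays, with overlapping groups and a change of 0.02 (SE 0.06). This lay at the 24.6th percentile of named genes. ABCG1, which exports cholesterol to high-density lipoprotein, had 4.13 and a change of 0.09 (SE 0.07). ABCG4, its relative in the brain, had 4.77 and a change of 0.05, and ABCA4, the retinoid flippase of photoreceptors, had 3.16 and a change of 0.09.

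The members that move bile salts, phosphatidylcholine and sterols into bile had signals below the median of named genes. ABCB11, the bile salt export pump, had a mean signal of 2.41, and ABCB4 had 3.67. ABCG5 and ABCG8, neighbours on chromosome 2 whose products pair to export sterols, had 3.36 and 4.10. ABCB11 had 2.53, 2.44 and 2.42 on the vector arrays and 2.41, 2.32 and 2.32 on the shSND1 arrays. Its groups did not overlap, and the change of -0.11 (SE 0.06, limma adjusted p = 0.493) did not pass. ABCG5 and ABCG8 had changes of 0.02 (SE 0.07) and 0.10 (SE 0.09).

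The 5 neighbouring genes ABCA8, ABCA9, ABCA6, ABCA10 and ABCA5 on chromosome 17, relatives of ABCA1 with less settled substrates, were also dim. Their signals ran from 1.61 for ABCA6 to 3.42 for ABCA5, and the changes from -0.08 for ABCA10 to 0.01. ABCA10 had non-overlapping groups, with 2.28, 2.23 and 2.21 on the vector arrays and 2.20, 2.10 and 2.18 on the shSND1 arrays, values near the floor of the array. ABCA13, a large member of the same subfamily, had 2.15 and a change of 0.01. In all, non-overlapping groups with lower shSND1 arrays were seen in 6 of 38 members (15.8%), against 11.6% of named genes. These were ABCC3, ABCC4, ABCC5, ABCA3, ABCA10 and ABCB11.

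The peptide class held 1 member. ABCB9, a lysosomal peptide transporter, had 5.64, 5.63 and 5.73 on the vector arrays and 5.67, 5.64 and 5.54 on the shSND1 arrays, with overlap and a change of -0.05 (SE 0.06). Its relatives TAP1 and TAP2, which carry peptides into the endoplasmic reticulum for antigen presentation, do not carry an ABC symbol. TAP2 had 6.13, 6.07 and 6.10 on the vector arrays and 5.97, 5.93 and 5.92 on the shSND1 arrays. Its groups did not overlap, and the change was -0.16 (SE 0.05, limma adjusted p = 0.275). TAP1 had a change of -0.10 (SE 0.07) with overlapping groups.

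The mitochondrial and porphyrin transporters had signals close to each other. ABCB8, of the mitochondrial inner membrane, ABCB6, a porphyrin transporter, and ABCB10 had mean signals of 5.66, 5.51 and 5.43, and changes of -0.03 (SE 0.06), -0.04 (SE 0.06) and -0.11 (SE 0.08). ABCB10, a mitochondrial inner membrane transporter needed for heme synthesis, had 5.63 on vector replicate 1 and 5.34 to 5.50 on the other 5 arrays. On all 3 of these genes vector replicate 1 was the highest of the 6 arrays. Of the remaining members, ABCD4, a lysosomal transporter needed for cobalamin release, had 6.00 and a change of -0.02. ABCC8 and ABCC9, the sulfonylurea receptors of ATP-sensitive potassium channels, had 4.65 and 1.86 and changes of 0.12 (SE 0.09) and 0.00.

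Drug efflux members lay higher on the array's scale than lipid and peptide members. Their mean signals had a median of 6.23, against 3.42 for the 21 lipid and peptide members and 4.83 for all named genes. Of the 10 efflux members, 8 lay above the median of named genes and 6 above the 75th percentile. Of the 21 lipid and peptide members, 6 lay above the median and 4 above the 75th percentile, while 9 lay below the 25th percentile. No test was run between the classes, since members were sorted with earlier results of these data known.

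The changes of the classes lay close to those of all genes. The median change was -0.04 for the 10 efflux members, 0.01 for the 21 lipid and peptide members and 0.01 for all named genes. With arrays centred on their medians these were -0.09, -0.04 and -0.05, so the sign of the lipid and peptide median turned. With the efflux class limited to ABCB1, ABCC1, ABCC2 and ABCG2 its median was 0.01. Negative changes were counted in 7 of 10 efflux members and 9 of 21 lipid and peptide members, against 47.1% of named genes. The 7 include ABCB5, whose signal was the same on every array and so had no real change. Among the 8 efflux members above the median signal, 6 had a negative change. Signal moved with sign in the family and on the whole array. Of the 18 members above the median signal 14 had a negative change (77.8%, against 57.9% of named genes above it). Of the 20 members at or below it 7 did (35.0%, against 36.3%), again with ABCB5 counted.

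**Figure D3:**
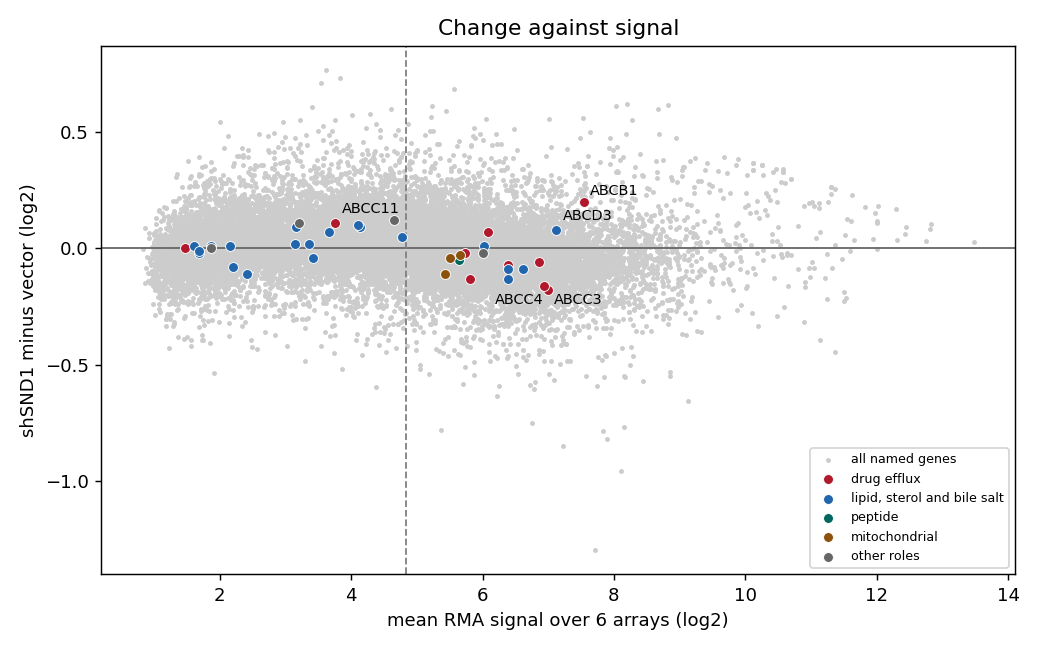
Change (shSND1 minus vector, log2, vertical axis) against mean RMA signal over 6 arrays (log2, horizontal axis) for all 22465 named genes in grey and the 38 ABC transporter genes coloured by role. The dashed line marks the median signal of 4.83, and all 38 members lie between -0.18 and 0.20, inside the grey cloud.

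The class medians on each array overlapped between the groups. The efflux median was 6.36, 6.25 and 6.09 on the vector arrays and 6.17, 6.25 and 6.28 on the shSND1 arrays, or 6.24 ± 0.13 and 6.23 ± 0.05 (SD, n = 3 each). The lipid and peptide median was 3.59, 3.44 and 3.41 on the vector arrays and 3.42, 3.39 and 3.56 on the shSND1 arrays, or 3.48 ± 0.10 and 3.45 ± 0.09 (SD, n = 3 each). In both classes vector replicate 1 gave the highest median. Vector replicate 1 was the highest of the 6 arrays for 14 of 38 members (36.8%, against 27.4% of named genes).

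**Figure D4:**
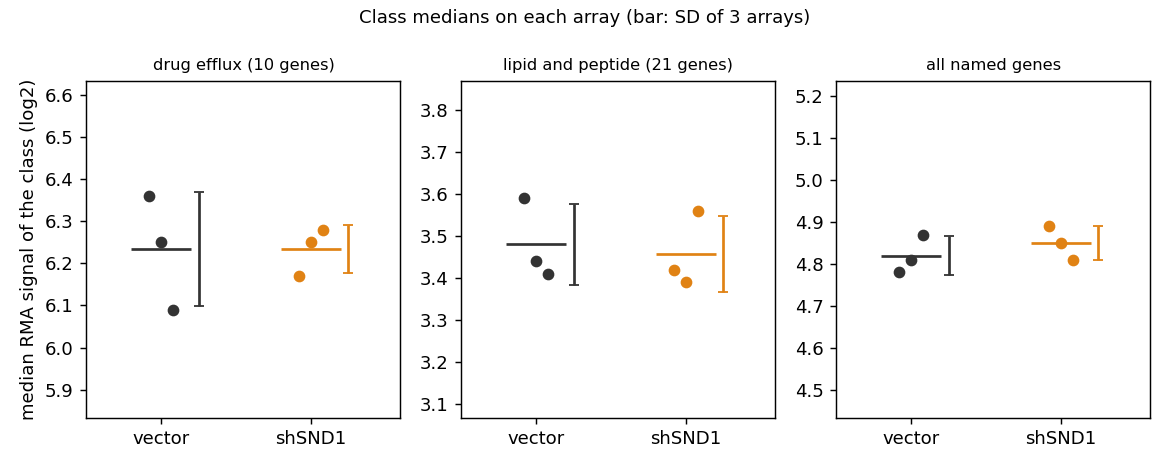
Median RMA signal (log2, vertical axis) of the 10 drug efflux genes, the 21 lipid and peptide genes and all named genes on each of the 3 vector and 3 shSND1 arrays (points), with the mean as a line and the SD of 3 arrays as a bar. The vertical axes span the same range around different centres and do not start at 0, and the groups overlap in each panel.

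Genes that work beside the family were read from 4 lists, with 58 of 72 listed genes measured. The lists were chosen with earlier results of these data known, so their counts describe them and do not test them. None passed the adjusted threshold. With an unadjusted limma p under 0.05, 8 of the 58 were lower and 2 were higher, against 7.34% and 4.85% of named genes. Of the 58, 44 lay above the median signal, where 11.8% of named genes were lower and 4.62% higher at that level. Leaving out single arrays gave 2 to 13 of the 58 lower and 1 to 3 higher. The number lower was 2 without vector replicate 1 or shSND1 replicate 2, and 13 without vector replicate 3. Of 18 measured uptake and conjugation genes 4 were lower and 0 higher. The largest change was that of SLCO2B1, an organic anion uptake carrier of hepatocytes and enterocytes. It read 7.08, 6.97 and 6.81 on the vector arrays and 6.57, 6.62 and 6.62 on the shSND1 arrays, without overlap. Its change was -0.35 (SE 0.07, limma adjusted p = 0.132), and it passed when the dimmest 40% of named genes were left out. SLCO4A1, another organic anion carrier, had -0.22 (SE 0.08, limma adjusted p = 0.323), and SLC47A1, a proton-coupled exporter of organic cations, had -0.15 (SE 0.06, limma adjusted p = 0.343).

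Of 14 measured regulators of transporter genes 2 were lower and 0 higher at that level. RXRA, the shared partner of the drug, bile acid and sterol receptors, had a change of -0.13 (SE 0.05). SREBF2, the activator of sterol synthesis genes, had -0.14 (SE 0.06), and ARNT, the partner of the aryl hydrocarbon receptor, had -0.12 (SE 0.06). Adjusted p-values from limma for these 3 lay between 0.375 and 0.497. Of 19 measured partners 1 was lower and 1 higher. MVP, the major vault protein, had -0.21 (SE 0.09), KCNJ8, the channel subunit that pairs with ABCC9, had 0.12 (SE 0.05), and APOE, a lipid acceptor of ABCA1 and ABCG1, had -0.15 (SE 0.07). Of the 7 ABC-type genes outside the naming rule, TAP2 was lower and CFTR, the chloride channel of the ABC superfamily, was higher. CFTR had 2.69, 2.95 and 3.12 on the vector arrays and 3.14, 3.21 and 3.62 on the shSND1 arrays. Its change was 0.41 (SE 0.15, limma adjusted p = 0.327), from a low mean signal of 3.12, at the 24.4th percentile of named genes. The groups nearly met, at 3.12 and 3.14, and shSND1 replicate 3 stood above the other arrays. ABCE1, a ribosome recycling factor that is not a transporter, had 0.18 (SE 0.08, limma adjusted p = 0.441).

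Several markers of epithelial cells were lower on the shSND1 arrays. Of 10 measured epithelial markers 2 passed the adjusted threshold, against 0.169% of named genes. They were CDH1 (E-cadherin) with a change of -0.95 (SE 0.07) and LGALS4 (galectin-4) with -0.82 (SE 0.06). Non-overlapping groups with lower shSND1 arrays were seen in 7 of the 10, against 11.6% of named genes and 18.7% of those above the median signal. The list was chosen with earlier results of these data known, so these shares describe it and do not test it. EPCAM, KRT7 and CDX2 had overlapping groups, and the change of KRT7 was 0.12. The summed signal of the 10 markers on the linear scale was 8845 to 9512 on the vector arrays and 7477 to 7822 on the shSND1 arrays. KRT8, KRT18 and KRT19, the brightest with mean log2 signals of 11.51, 11.50 and 10.19, weigh most in this sum. Their changes were -0.19, -0.23 and -0.33. The 12 hepatocyte markers summed to 384 to 405 and 373 to 398, with none past the adjusted threshold. SERPINA1, APOC3 and APOA2 had the smallest p-values of that list, with changes of -0.43, -0.13 and 0.08. The 8 leukocyte and endothelial markers summed to 391 to 470 and 293 to 325 and the 6 fibroblast markers to 103 to 113 and 105 to 118, also with none past it. CD68 alone made up 316 to 400 and 224 to 250 of the leukocyte and endothelial sum, and the other 7 markers summed to 69.4 to 74.7 and 69.5 to 78.7. Of the 8, 5 had positive changes, and the median change was 0.08. CD68 (a lysosomal glycoprotein), CDH5 and VWF had the smallest p-values of the former list, with changes of -0.55 (SE 0.09), 0.08 and 0.10, and among fibroblast markers LUM, THY1 and DCN had -0.11, 0.12 and -0.08. In bulk RNA, fewer cells of a type and less RNA per cell cannot be told apart. The part of these markers in the transporter values was not tested.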

How the data were processed

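The deposited table holds log2 signals that the authors summarised with RMA (robust multi-array average: background correction, quantile normalization and probe summarisation), per the submitters' processing notes. Its version is not given in the sources used here, and no scanner files were used, so background correction could not be varied. Of 70523 features, 67528 were transcript clusters, of which 23781 had 1 symbol in GEO's platform annotation, 1543 several and 42204 none in the table used. For each of 22465 named genes the brightest row by mean stood for the gene. Array medians over the clusters were 3.58 to 3.73, and 3 arrays per group limit the precision.

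Changes were fitted over all named genes with limma 3.58.1 (lmFit, eBayes) in R 4.3.3, group as the only term, no filter on low values, and Benjamini-Hochberg adjustment at 0.05. The step was run on simulated data with known changes. These data were drawn from limma's own variance model with independent arrays, so they do not test how the fit suits these arrays. Per-array values are given for members with an unadjusted p under 0.05 or a mean above the 75th percentile, for ABCB1, ABCC1, ABCC2, ABCG2, ABCC11 and ABCA1, and, chosen after their values were seen, for ABCB4, ABCB9, ABCB11, ABCC5, ABCA10, TAP2, SLCO2B1 and CFTR. Outside the family, the 3 genes per list with the smallest p were named. TAP1 and the other hepatocyte and epithelial markers named were added after their values were seen. Members, roles and lists were chosen with earlier results of these data known. Figures were drawn with matplotlib 3.10.9.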

Additional observations from a re-analysis of the deposited data

How the results depend on the processing

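No member passed the adjusted threshold in 14 of 15 alternatives. With array weights 4 did (ABCB1, ABCC3, ABCC5 and ABCC11), a setting that weighted vector replicate 2 by 7.77, against 0.449 to 2.12 for the other arrays, and called 3212 named genes. The members lower and higher with an unadjusted p under 0.05 were 2 and 1. They were 1 and 0 with the replicate number as a block, 4 and 0 with arrays centred, 4 and 2 with quantile normalization run again, 3 and 2 with the floor, 4 and 1 with a variance trend, 7 and 6 with array weights, and 0 to 4 and 0 to 1 when single arrays were left out. Without vector replicate 3 and shSND1 replicate 1 together, an alternative chosen after seeing the data, they were 3 and 1. The replicate numbers share only a number. Over named genes above the median signal, deviations of arrays 1, 2 and 3 from their group means correlated between the groups at -0.364, 0.107 and -0.486. Not every array correlated best with its own number. The highest value was 0.565, for vector replicate 3 with shSND1 replicate 1. Then came 0.32 and 0.31, for vector replicates 1 and 2 with shSND1 replicate 3. The main fit treated the arrays as independent.

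Of the 58 genes outside the family, 1 passed without the dimmest genes and 15 with array weights. Their lower and higher counts were 8 and 2. They were 2 and 1 with the replicate block, 13 and 1 with arrays centred, 19 and 8 with array weights, and 2 to 13 and 1 to 3 when single arrays were left out. The floor gave 1 higher, and leaving out the pair of arrays closest between groups gave 4 higher.

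The efflux median signal was 6.63 without the dimmest 40% of genes, which keeps 8 of its members, and 6.63 for the narrow class. The lipid and peptide median was then 6.39 over the 7 members kept. The SND1 change of -1.49 had a limma adjusted p of 0.142 with the replicate block and 0.178 with the floor, and was -1.41 to -1.55 when single arrays were left out.

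The sign of the change, at 2 decimals, did not turn in the alternatives run for 22 of 38 members, ABCB1 (0.15 to 0.26), ABCC3 (-0.24 to -0.14), ABCC4 (-0.21 to -0.12) and ABCC5 (-0.19 to -0.10) among them. It turned for 14 whose main change was at most 0.09 in size. With arrays centred it was -0.03 for ABCA1, -0.05 for ABCA6, -0.04 for ABCA7, ABCA9, ABCA13 and ABCG5, and -0.01 for ABCG4. With quantile normalization run again it was -0.03 for ABCA1, -0.01 for ABCA13 and -0.04 for ABCG5. With array weights it was -0.01 for ABCA7 and 0.02 for ABCB8. It was 0.05 for ABCD2 without the closest pair of arrays. When single arrays were left out the change spanned -0.02 to 0.06 for ABCA1, -0.12 to 0.03 for ABCA5, -0.01 to 0.04 for ABCA6 and ABCA7, -0.16 to 0.03 for ABCA12, -0.02 to 0.05 for ABCA13, -0.10 to 0.01 for ABCC1, -0.01 to 0.14 for ABCC2, -0.09 to 0.04 for ABCD2, -0.04 to 0.01 for ABCD4 and -0.03 to 0.05 for ABCG5. ABCB5 and ABCC9 had a main change of 0.00 and alternatives of both signs (-0.06 to 0.02 and -0.06 to 0.03). The causes were not tested. The 95% interval of each of the 14 spans 0, and the 18 members dropped by the filter on dim genes lie where signals may be compressed.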
